A study of Mus musculus with 6 samples.

Results

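Wnk2, Gipr and Ednrb are 3 of the 16906 genes in the deposited gene table, and 23 of its 51947 transcripts belong to them. They were chosen by their log2 fold change, which is among the largest in the comparison reported here, so their own difference between the groups is given as a description and without a test. The study used bone-marrow-derived macrophages of wild-type C57BL/6 mice, which are macrophages grown in culture from marrow precursors, here for 7 days in medium with 10% serum and 10 ng/ml of the growth factor M-CSF. The 3 libraries called stretched came from macrophages given exosomes, which are small secreted vesicles, of epithelial cells under cyclic stretch for 6 h. The 3 libraries called static came from macrophages given exosomes of epithelial cells that were not stretched. In both groups the exosome dose was 100 µg/ml and the exposure lasted 12 h, and no group without exosomes was analysed here. The sources used here give neither the species of the epithelial cells nor how many mice stand behind each library.

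Wnk2 encodes a member of the "with no lysine" kinases, which sense chloride and cell volume and switch on the kinases encoded by Stk39 and Oxsr1, and these in turn act on cation-chloride cotransporters. Gipr encodes the receptor for the gut hormone GIP, a class B G-protein-coupled receptor that raises cAMP and is best known in pancreatic islets and fat tissue. Ednrb encodes the B-type endothelin receptor, a class A G-protein-coupled receptor that binds every endothelin peptide and is best known in endothelium and in cells of the neural crest. None of these genes is a standard marker of macrophages.

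The libraries held 16984561 to 17625991 estimated counts. Across genes, static 1 and static 2 correlated at 0.991 on the log2 CPM scale and static 3 at 0.95 and 0.954 with them, while the stretched libraries correlated at 0.97 to 0.986 with each other. CPM is the count relative to a fixed library total, with totals adjusted by TMM factors. Of 12892 genes tested, 6.55% were called higher and 5.38% lower with exosomes of stretched cells (edgeR quasi-likelihood test, adjusted p under 0.05), and 18.5% had all stretched libraries above all static libraries. Scaling by library size alone moved the median log2 fold change of all tested genes to -0.19, against 0.00 with TMM factors. All 9 macrophage markers were detected, with a summed level of 19277 to 23282 CPM in stretched libraries and 22105 to 31251 CPM in static libraries. Most of that sum was Lyz2, which averaged 11798 CPM in stretched and 16737 CPM in static libraries. Within that list Mertk was called higher and C1qa lower, at adjusted p of 0.0479 and 0.046, and of 0.056 and 0.0601 blocked by replicate number. Of those not called, Adgre1 and C1qb lay below all static libraries in every stretched library, and Cd68 and Fcgr1 above. In bulk RNA a change in the number of cells that make a transcript and a change in the amount per cell cannot be told apart.

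Wnk2 (gene identifier 75607, chromosome 13, 49036302 to 49148574, GRCm38.p6) was barely detected in static libraries and well detected in stretched ones. Its estimated counts were 287, 618 and 304 in stretched 1 to 3, against 7, 10 and 34 in static 1 to 3. These gave 17.3, 42.1 and 17.5 CPM in stretched libraries, against 0.373, 0.547 and 1.81 CPM in static libraries. The groups did not overlap. Stretched 2 stood above the other stretched libraries, and static 3 stood above the other static libraries. The mean was 25.6 ± 14.2 CPM in stretched and 0.91 ± 0.784 CPM in static libraries (SD, n = 3 each), a log2 fold change of 4.80 ± 0.63 (SE). The lowest stretched library exceeded the highest static one 9.55-fold. Because the static counts were so small, the counting error of the fold was set out too. The summed counts of 1209 in stretched and 51 in static libraries gave a ratio of 27.2 with an exact 95% interval from 20.5 to 36.7, which covers counting error only. Static 3 moved this fold, and without it the log2 fold change was 5.77.

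Gipr (gene identifier 381853, chromosome 7, 19156063 to 19170248) had the fewest reads of these genes. It had 121, 186 and 218 estimated counts in stretched 1 to 3, against 14, 7 and 3 in static 1 to 3. In CPM it stood at 7.28, 12.7 and 12.5 in stretched libraries, against 0.747, 0.383 and 0.16 in static libraries. Here stretched 1 was the lowest of its group and static 1 the highest of its own, and the groups did not overlap. The mean was 10.8 ± 3.07 CPM in stretched and 0.43 ± 0.296 CPM in static libraries (SD, n = 3 each), with a log2 fold change of 4.63 ± 0.49 (SE). The exact 95% interval of the 3 counts in static 3 ran from 0.619 to 8.77 counts, so the level in that library is known only to that width. Without static 1 the log2 fold change was 5.28, the highest with 1 library left out. Summed over libraries, 525 counts in stretched against 24 in static gave a ratio of 25.1 (exact 95% interval 16.7 to 39.5).

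Ednrb (gene identifier 13618, chromosome 14, 103814615 to 103844508) was the most abundant and the least even among stretched libraries. It had 1901, 1500 and 392 estimated counts in stretched 1 to 3, against 92, 98 and 91 in static 1 to 3. That was 114, 102 and 22.6 CPM in stretched libraries, against 4.91, 5.36 and 4.84 CPM in static libraries. The static libraries were nearly equal, with a coefficient of variation of 5.57%, whereas that of the stretched libraries was 62.6% because stretched 3 was low. Stretched 3 was still 4.21-fold above the highest static library. The mean was 79.7 ± 49.9 CPM in stretched and 5.04 ± 0.281 CPM in static libraries (SD, n = 3 each), with a log2 fold change of 3.98 ± 0.58 (SE). Without stretched 3 the log2 fold change was 4.39 and its SE 0.15.

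**Figure D1:**
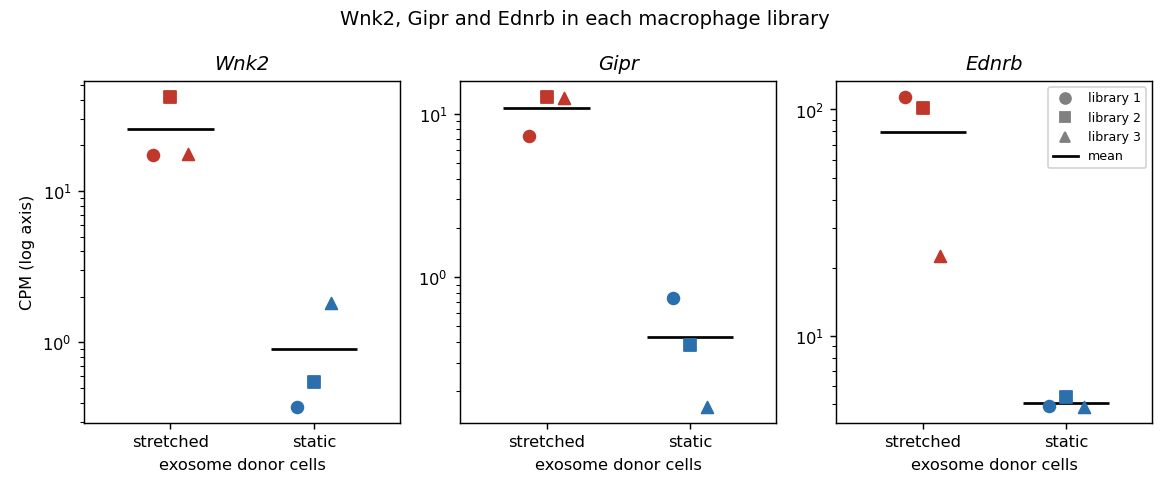
CPM on a log axis in each library, with stretched left of static in every panel, a symbol for each replicate number and a line at the group mean. The groups are apart for all 3 genes, and Ednrb in stretched 3 (22.6 CPM) lies well below the other stretched libraries (114 and 102 CPM).

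The stretched libraries did not rank alike for these genes. Wnk2 was highest in stretched 2, Gipr in stretched 2 and stretched 3, and Ednrb in stretched 1 and stretched 2. Static libraries also ranked differently, since static 3 was the highest for Wnk2 and the lowest for Gipr. Taken by replicate number, Wnk2 was 46.2, 76.9 and 9.67 times as high in stretched as in static libraries 1 to 3. The same ratios were 9.75, 33.1 and 78.6 for Gipr and 23.3, 19.1 and 4.66 for Ednrb. Pair 3 thus held the smallest ratio for Wnk2 and Ednrb and the largest for Gipr, where the static value rests on 3 counts. Over the 6 libraries, log2 CPM of Wnk2 correlated with that of Gipr at 0.891 and with that of Ednrb at 0.909, and Gipr with Ednrb at 0.874. These correlations describe points that share libraries and a group difference for which the genes were chosen.

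Per length, Ednrb was the most abundant in every library. It averaged 21.9 ± 13.4 FPKM in stretched and 1.62 ± 0.173 FPKM in static libraries (SD, n = 3 each; FPKM is the authors' value per length and sequencing depth). Gipr averaged 4.14 ± 1.19 FPKM in stretched and 0.2 ± 0.135 FPKM in static libraries. Wnk2 averaged 2.94 ± 1.3 FPKM in stretched and 0.13 ± 0.114 FPKM in static libraries. The values of Gipr and Wnk2 overlapped within both groups. In stretched 3 Ednrb (6.86 FPKM) and Gipr (5.24 FPKM) were close together, against 32.44 and 2.88 FPKM in stretched 1. Ednrb lay above 58.4% to 85.9% of all genes in stretched libraries and above 36.6% to 40% in static ones. Gipr lay above 45.2% to 54% of genes in stretched libraries and above 14.9% to 26.6% in static libraries. Wnk2 lay above 40.9% to 54.7% in stretched libraries and above 15.1% to 24% in static ones.

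The choice of these genes rests on a ranking by log2 fold change. Among 737 genes called higher that separated the groups and averaged at least 5 CPM, Wnk2 stood at rank 4, Gipr at rank 5 and Ednrb at rank 9. Just inside, Ptgs2 stood at rank 8 with 4.03, and just outside, Hilpda followed at rank 10 with 3.86 and Il6 at rank 11 with 3.81. Without the floor on abundance and separation, Ednrb held rank 17 of 844 genes called higher, so its place among the first 9 depended on that floor.

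Reads of each gene were split over transcript models in the deposited transcript table. For Ednrb, 4 models were listed, and NM_007904.4 took most of the estimated count in 5 of 6 libraries, with 1268.62, 829.6 and 241.89 counts in stretched 1 to 3, against 57.3, 40.96 and 76.34 in static 1 to 3. It held 61.7% of the gene's count over stretched and 62.14% over static libraries. NM_001276296.1 had 19.62% over stretched and 23.8% over static libraries, but 0 counts in static 3 and slightly more than NM_007904.4 in static 2 (41.5 counts). XM_006518515.2 held 18.68% over stretched and 14.05% over static libraries. NM_001136061.2, whose GENCODE start lies upstream of those of the other NM models, had 0.07 counts over all stretched and 0.03 over all static libraries. In GENCODE all 3 NM models of Ednrb have a coding length of 1326 bases, or 442 codons. NM_007904.4 starts at 103843696 and NM_001276296.1 at 103843695, whereas NM_001136061.2 starts at 103844402. The start of XM_006518515.2 was not compared.

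For Gipr, 7 models were listed, all with some count in a stretched library and 3 with some in a static library. NM_001080815.1, with 460 codons in GENCODE, was the steadiest, at 32.96, 47.31 and 55.91 counts in stretched 1 to 3, against 4.13, 5.13 and 0 in static 1 to 3. It took 27.24%, 25.44% and 25.65% of the gene's count in stretched 1 to 3. The predicted model XM_006540144.2 held 69.74%, 9.15% and 55.81% there, and XM_006540145.2 held 0%, 59.24% and 14.33%. The shares of these predicted models thus varied widely between stretched replicates, and the static libraries held only 24 counts of the gene in all. A difference in their use between the groups was not tested.

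For Wnk2, 12 models were listed, all with a higher summed count over stretched than over static libraries. They split the count of 1 gene chosen for its rise, so this adds nothing to the gene's own difference. Of the 12, 7 had some count in a static library. The lowest, XM_011244419.2, had 0.56 counts over stretched and 0 over static libraries. The leading model, XM_006516979.2, had 109.66, 198.71 and 82.41 counts in stretched 1 to 3, against 0, 0 and 11.32 in static 1 to 3. It held 32.32% of the gene's count over stretched and 22.2% over static libraries. NM_001290311.1, of 29 exons and 2213 codons, held 15.49% over stretched and 17.92% over static libraries. NM_029361.4, of 28 exons and 2065 codons, held 3.05% over stretched and 13.1% over static libraries, where all its 6.68 counts lay in static 2. With 51 counts over all static libraries, the make-up of Wnk2 transcripts in that group could not be resolved.

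**Figure D2:**
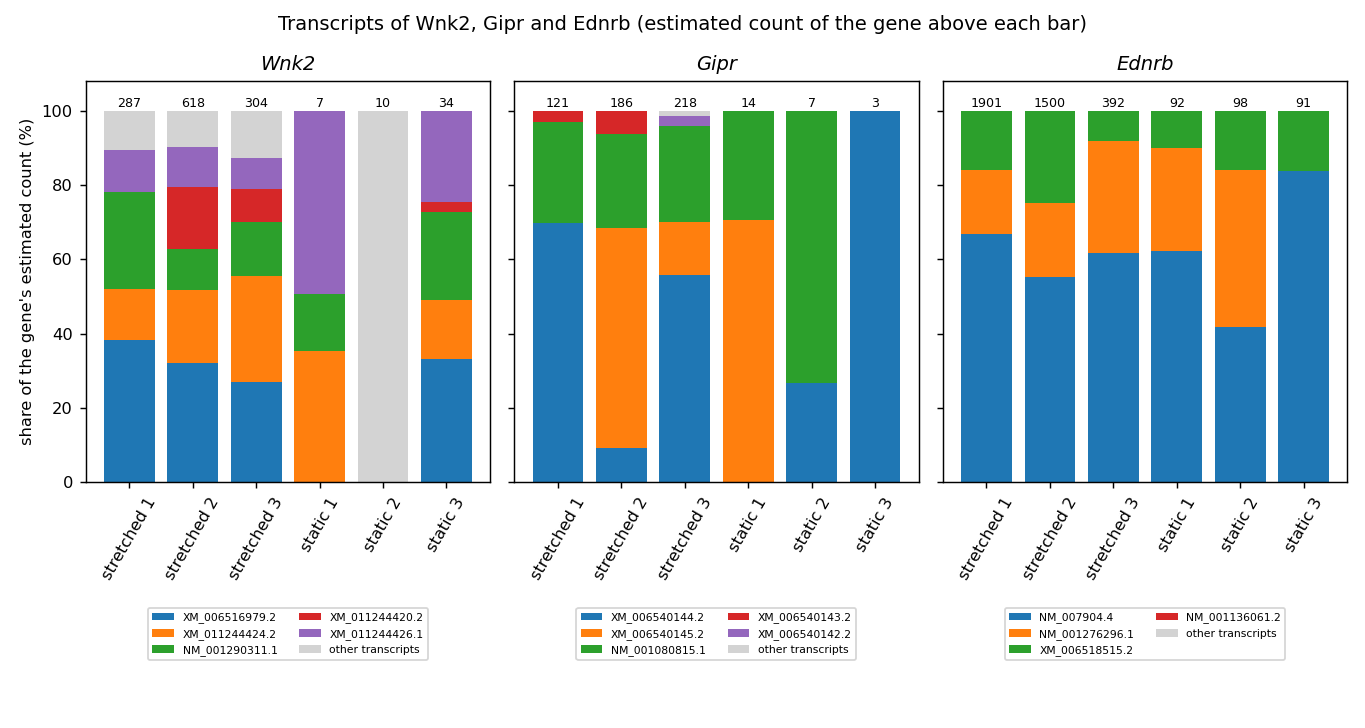
Share of each gene's estimated count (%) by transcript model in each library, with stretched libraries left of static ones, the 5 leading models coloured, the rest in grey, and the gene's count above each bar. NM_007904.4 leads Ednrb in all libraries but static 2, whereas the static bars of Wnk2 and Gipr rest on 3 to 34 counts each.

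The start regions of Wnk2 and Ednrb are shown because these genes were both higher in every stretched library and because the start shown for Ednrb lies near those of NM_007904.4 and NM_001276296.1. The sequences are from RefSeq on GRCm38.p6, 250 bases before to 50 after an annotated start, both on the minus strand and written 5′ to 3′ in the direction of the gene. That of Wnk2 is chr13:49148279-49148578, anchored at 49148328, whereas both NM models of Wnk2 start at 49148014 in GENCODE. That of Ednrb is chr14:103843652-103843951, anchored at 103843701. Capitals mark matches to any of 9 short motifs searched on both strands.
Wnk2: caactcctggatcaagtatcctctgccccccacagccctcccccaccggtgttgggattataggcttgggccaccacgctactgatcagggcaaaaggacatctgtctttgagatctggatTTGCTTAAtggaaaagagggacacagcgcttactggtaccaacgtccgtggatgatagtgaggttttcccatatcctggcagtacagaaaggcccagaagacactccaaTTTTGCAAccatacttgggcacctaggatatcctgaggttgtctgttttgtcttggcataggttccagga
Ednrb: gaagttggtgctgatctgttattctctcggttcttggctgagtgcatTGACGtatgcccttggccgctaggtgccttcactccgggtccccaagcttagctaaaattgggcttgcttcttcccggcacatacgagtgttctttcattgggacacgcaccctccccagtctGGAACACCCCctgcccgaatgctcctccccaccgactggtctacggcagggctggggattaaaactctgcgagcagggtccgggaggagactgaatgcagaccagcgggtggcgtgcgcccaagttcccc

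One motif was a broad kB-type site (3 G, any 5 bases, 2 C), and a narrower form of it was GGGNNTTCC. The AP-1 motif TGANTCA was in neither window and in 7.81% of 32851 windows of the same length. The STAT motif TTCNNNGAA (8.3% of windows) and the interferon element core GAAANNGAA (8.56%) also had 0 matches in either. So did the hypoxia element ACGTG (19.6%) and the TATA box TATAAA (13.6%). The Wnk2 window held 2 matches to the C/EBP motif TTGCNNAA, beginning at -129 and -20 from the start, and TTGCNNAA occurred in 10.8% of all windows. The Ednrb window held 1 match to the broad kB-type site, on the opposite strand with its leftmost base at -80, and 1 match to the cAMP element TGACG at -203. The broad kB-type site occurred in 50.8% of all windows and TGACG in 20.8%. The narrower GGGNNTTCC also matched at -80 and occurred in 5.82% of windows, but it was chosen after the match had been seen, so that share does not show that the match is unusual. The interferon element core was also shortened after a first search, and neither form matched. No motif was matched in both windows. A match is a description of letters and does not show a bound site. Gipr has no entry in the table of start sequences used.

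Like most tested genes, the Wnk2 relatives and partners mostly did not pass the test. Wnk1, the widely expressed member of the family, was by far the most abundant kinase of the group per length, at 26.9 FPKM on average in stretched and 32 FPKM in static libraries. Its level was 247, 290 and 296 CPM in stretched 1 to 3, against 264, 303 and 300 CPM in static 1 to 3, a log2 difference of -0.06 ± 0.15 (SE, adjusted p = 0.825). Wnk3 and Wnk4 were too low to test, with 19 and 14 counts over all stretched, against 19 and 12 over all static libraries. Wnk2 was therefore above Wnk3 and Wnk4 in every stretched library, and it overlapped both in static libraries per length. Of 24 other genes of the pathway, chosen for their known link to Wnk kinases, 20 were tested. Of these, 1 was called higher and 0 lower, against 6.55% and 5.38% of all tested genes, and 19 did not pass. The median log2 fold change of the 20 was 0.08, against 0.00 for all tested genes. With no adjustment of p, 6 were higher and 1 lower by edgeR at the 0.05 level, against 2128 and 1955 of 12892 tested genes. By adjusted p, DESeq2 called 4 higher and 1 lower, against 1398 and 1275 of all tested genes. The gene called was Nedd4l, a ubiquitin ligase that limits sodium transporters. It had 37.6, 37.8 and 29.9 CPM in stretched 1 to 3, against 12.1, 11 and 20.7 CPM in static 1 to 3, and rose by 1.26 ± 0.26 on the log2 scale (SE, adjusted p = 0.0276). With the replicate numbers as a block 2 were called higher, the addition being Lrrc8d, a subunit of volume-regulated anion channels, chosen for naming after its values were seen (1.08 ± 0.29, adjusted p = 0.0512, and 0.0266 with the block; 0.00496 to 0.154 over all alternatives). With stretched 1, 2 and 3 and then static 1, 2 and 3 left out, 0, 0, 1, 0, 0 and 3 were higher by edgeR. For this list those fits gave 3 to 6 higher without adjustment of p, at the 0.05 level. Among the 13017 to 13099 genes tested in those fits, 1454 to 3033 were higher without adjustment. Over all genes tested in them, 133, 33, 556, 64, 0 and 2095 were called higher in the same order.

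Of the ligand genes in the list, Gip was not analysed here. Gcg, the glucagon gene, had 0 counts over all stretched and 2 over all static libraries. The receptors nearest to Gipr were near the detection limit, with 2 and 1 counts for Glp1r, 5 and 2 for Gcgr and 29 and 18 for Glp2r over all stretched and all static libraries. Gipr was the only one of these 4 receptors above 0.33 FPKM in any library. Dpp4, which encodes the protease that inactivates GIP, had 1.32, 2.04 and 1.96 CPM in stretched 1 to 3, against 0.48, 1.2 and 4.95 CPM in static 1 to 3 (log2 fold change -0.32 ± 0.74, SE, adjusted p = 0.805). That value turned to 1.07 without static 3, which held the high static level, and the adjusted p was then 0.122 (0.122 to 0.966 over all alternatives).

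Of 39 listed genes of the GIP receptor and cAMP pathway 31 were tested, 3 were called higher and 2 lower, against 6.55% and 5.38% of all tested genes, with a median log2 fold change of 0.22, against 0.00 for all tested genes. The calls included regulatory subunits of protein kinase A, the main cAMP sensor, and they went in both directions. Prkar2b had 123, 135 and 96.9 CPM in stretched 1 to 3, against 51.8, 50.9 and 52.2 CPM in static 1 to 3, and rose by 1.19 ± 0.15 on the log2 scale (SE, adjusted p = 0.0138). Prkar1b, less abundant, rose by 1.16 ± 0.30 (adjusted p = 0.0497), and the reference places Dnaaf5 over its locus. It was not called with DESeq2's size factors, with library size alone, without a filter on low counts or on either FPKM scale. Prkar2a had 19.6, 16 and 21.5 CPM in stretched 1 to 3, against 56.2, 55.3 and 35.3 CPM in static 1 to 3, and was lower by a log2 value of -1.36 ± 0.22 (SE, adjusted p = 0.0188). Pde4d, a phosphodiesterase that breaks down cAMP, rose by 1.07 ± 0.24 (adjusted p = 0.0331) and was not called on either FPKM scale. Adcy7, an adenylyl cyclase of blood cells that makes cAMP, averaged 149 ± 9.61 CPM in stretched and 222 ± 12.4 CPM in static libraries (SD, n = 3 each), and was lower by a log2 value of -0.58 ± 0.13 (SE, adjusted p = 0.0343). Adcy7 lies under Brd7 in the reference. Blocked by replicate number, its adjusted p was 0.0537 (alternatives ran from 0.000379 to 0.121), and 1 gene was lower in that fit. With each library left out in the order above, 1, 0, 1, 0, 0 and 5 were higher and 0, 0, 1, 0, 0 and 4 lower. Without adjustment of p, those fits gave 3 to 7 higher and 3 to 5 lower by edgeR at the 0.05 level. Over all 13017 to 13099 genes tested they gave 1454 to 3033 higher and 1321 to 2797 lower without adjustment. In a wider list of class B receptor genes and the accessory genes Ramp1, Ramp2 and Ramp3, 14 of 17 genes were measured and 5 were tested. The tested genes were the receptor genes Pth1r and Calcrl, neither of them called, and the Ramp genes. Of these 5, 1 was called higher and 0 lower, against 6.55% and 5.38% of all tested genes. Their median log2 fold change was 0.00, as it was for all tested genes. Without adjustment of p, 0 of the 5 were lower by edgeR at the 0.05 level, against 1955 of the 12892 tested genes. DESeq2 called 0 of the 5 lower. The gene called was Ramp3, a partner protein of the calcitonin-like receptor, which had 1.69, 2.79 and 3.28 CPM in stretched 1 to 3, against 0.427, 0.711 and 0.639 CPM in static 1 to 3 (2.11 ± 0.39, adjusted p = 0.0233). It was called in 1 of the 6 fits with a library left out, the one that omits static 3, at an adjusted p of 0.0143 (alternatives ran from 0.000451 to 0.0971).

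Of the endothelin ligands, Edn1 was transcribed by these cultures and Edn2 and Edn3 were not detectable beyond 1 count each. Edn1 had 61.8, 87.1 and 8.63 CPM in stretched 1 to 3, against 25.6, 39.6 and 5.43 CPM in static 1 to 3. Libraries numbered 3 were low in both groups, the groups overlapped, and the difference was 1.16 ± 0.86 on the log2 scale (SE, adjusted p = 0.394). Blocked by replicate number, Edn1 was called higher at an adjusted p of 0.0325 (alternatives ran from 0.0325 to 0.767). The endothelial marker sum ran likewise, at 366, 310 and 138 CPM in stretched 1 to 3, against 286, 244 and 134 CPM in static 1 to 3, and the part of endothelial cells in the Edn1 level was not tested. Its log2 fold change was 0.56 without stretched 2 and 1.75 without static 2. Ednrb in stretched 3 was low as Edn1 was, but Ednrb in static 3 stood level with the other static libraries. Ednra, the A-type receptor, had 3.55, 3.06 and 3.51 CPM in stretched 1 to 3, against 5.23, 4.43 and 2.93 CPM in static 1 to 3 (log2 fold change -0.31 ± 0.28, adjusted p = 0.474). Per length, Ednrb exceeded Ednra in every stretched library, at 6.86 to 32.44 against 0.74 to 1.01 FPKM. In static libraries the receptors overlapped, with Ednrb at 1.47 to 1.81 FPKM and Ednra at 0.92 to 1.59 FPKM. Ece1, which encodes the enzyme that releases active endothelin, did not pass (0.25 ± 0.24, adjusted p = 0.506).

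**Figure D3:**
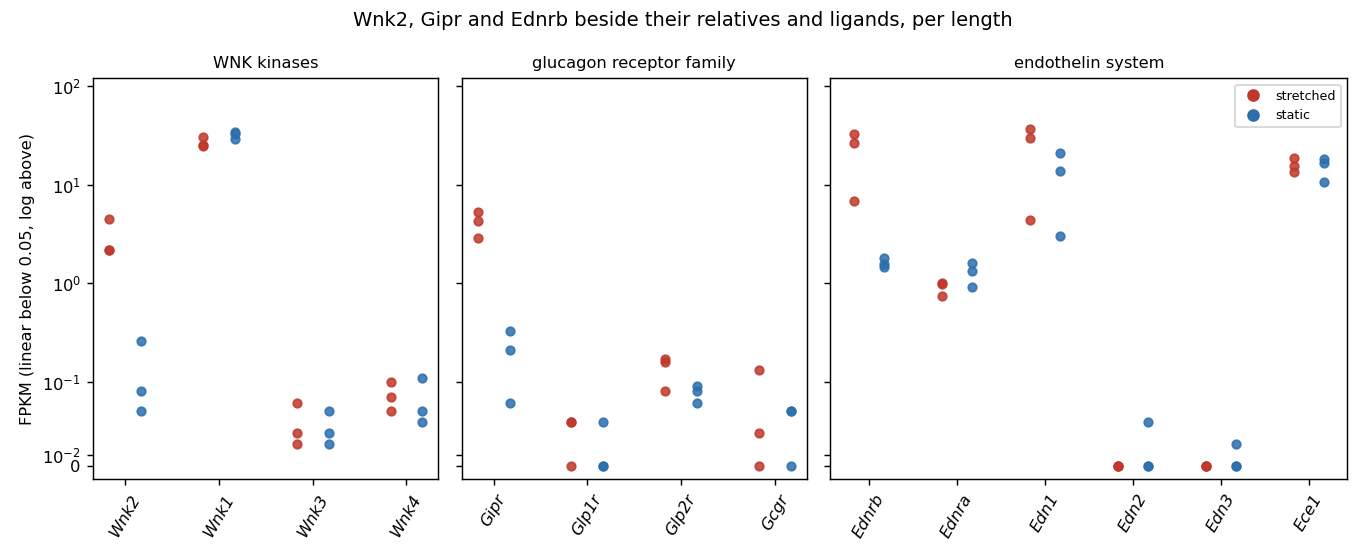
FPKM of each gene in each library (axis linear below 0.05 and logarithmic above), with stretched left of static for each gene. Wnk1 and Ece1 lie at like levels in both groups, the receptors related to Gipr stay at or below 0.17 FPKM, and Ednrb lies above Ednra in stretched libraries, a difference that was not tested.

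Of 26 listed endothelin pathway genes 21 were tested. Of these, 1 was called higher and 2 lower, against 6.55% and 5.38% of all tested genes. The median log2 fold change of the 21 was 0.06, against 0.00 for all tested genes. Plcb4, a phospholipase that acts below Gq-coupled receptors, averaged 7.91 ± 1.83 CPM in stretched and 4.15 ± 0.288 CPM in static libraries (SD, n = 3 each) and rose by 0.93 ± 0.23 (SE, adjusted p = 0.0445). Ece2, a second converting enzyme gene, had 6.5, 6.19 and 6.33 CPM in stretched 1 to 3, against 19, 18.1 and 11.2 CPM in static 1 to 3, and was lower by a log2 value of -1.34 ± 0.23 (SE, adjusted p = 0.0206). Its locus overlaps a read-through gene, Eef1akmt4-ece2, in the reference, so how its reads were assigned is uncertain. Gna12, a G-protein subunit gene, was lower by -0.86 ± 0.21 on the log2 scale (adjusted p = 0.0426). Blocked by replicate number, Plcb4 had an adjusted p of 0.0564 (alternatives ran from 0.00817 to 0.159) and Gna12 one of 0.0549 (0.00488 to 0.145). In that fit 1 gene was lower. With each library left out in the order above, 0, 0, 1, 0, 0 and 3 were higher and 0, 0, 1, 0, 0 and 4 lower. Without adjustment of p, those fits gave 3 to 5 higher and 3 to 4 lower by edgeR at the 0.05 level. Over all 13017 to 13099 genes tested they gave 1454 to 3033 higher and 1321 to 2797 lower without adjustment. Plcb4 was also not called with library size alone, without a filter on low counts or on either FPKM scale.

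**Figure D4:**
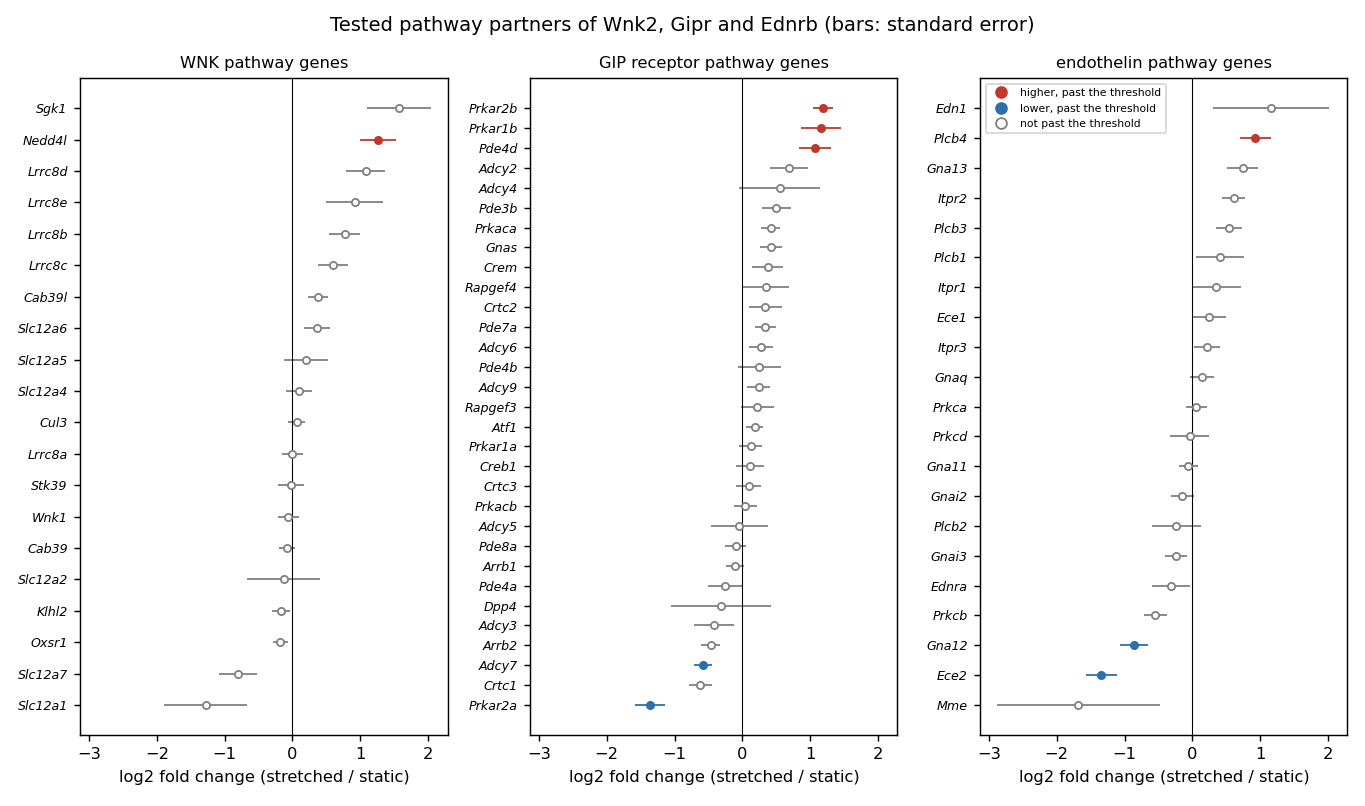
Log2 fold change (stretched over static) with SE for each tested gene of the WNK, GIP receptor and endothelin lists, without Wnk2, Gipr and Ednrb themselves. Filled points passed the threshold, 1, 5 and 3 in the panels from left to right, and most partners lie within 1 of 0. Of all tested genes 11.9% passed it.

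Over the 4 lists together, 77 of 103 genes were tested, 6 were called higher and 4 lower, with a median log2 fold change of 0.12. Among all tested genes, called in either direction were 11.9%, so the partners as a whole were called at about the background rate. Of those 10 genes, 10 stayed called without static 3, 1 without stretched 1 (Prkar2b), 3 without stretched 3 (Prkar2a, Prkar2b and Ece2) and 0 without stretched 2, static 1 or static 2, and DESeq2 with all libraries called 10. Calls over all genes moved likewise, to 2095 higher and 2011 lower without static 3. They were 133 and 28 without stretched 1, 33 and 3 without stretched 2, and 556 and 258 without stretched 3. Without static 1 they were 64 and 24, and without static 2 they were 0 and 0.

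The genes on either side of each locus, taken by position after the files had been read, were compared with the same fit. Of 12 neighbours 10 were tested, 1 was called higher and 1 lower, against 6.55% and 5.38% of all tested genes. Next to Wnk2, Card19, which lies 54375 bases away, rose by a log2 value of 1.40 ± 0.19 (adjusted p = 0.0151). Ninj1, which lies between them, averaged 505 ± 158 CPM in stretched and 236 ± 129 CPM in static libraries (1.10 ± 0.40, adjusted p = 0.106). On the other side of Wnk2, Fam120a and Phf2 did not pass (-0.26 and 0.13). Gipr lies in a dense stretch, with Snrpd2 and Eml2 only 3328 and 6172 bases away. Their log2 fold changes were -0.35 ± 0.17 and -0.14 ± 0.34, and neither passed (adjusted p = 0.209 and 0.816). Ednrb is isolated, and its nearest tested neighbour, Slain1 at 109707 bases, did not pass (0.48 ± 0.38, adjusted p = 0.433). Beyond a gap of 633025 bases Rnf219 was lower (-1.09 ± 0.27, adjusted p = 0.043, and 0.0657 blocked by replicate number). The reference also places Gm35197 over the Ednrb locus, and no gene over those of Wnk2 and Gipr. The sources used here do not say whether the libraries kept strand, so reads of overlapping genes could not be told apart.

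Other genes followed the same course over the 6 libraries. The 5 genes most like Wnk2 in log2 CPM were Pcmtd1, the kinesin gene Kif21b, Ankrd66, the ceramide kinase gene Cerk and Tmem184b, with Pearson r of 0.997 to 0.999. All had stretched 2 highest within stretched and static 3 highest within static libraries, as Wnk2 did. That shared order comes with their choice by correlation. Ankrd66 came nearest to Wnk2 in size among them, with 18.8, 31.2 and 20.6 CPM in stretched 1 to 3, against 1.92, 2.3 and 5.11 CPM in static 1 to 3. The 5 most like Gipr were Txnip, a regulator of thioredoxin and glucose uptake, P4ha1, a collagen prolyl hydroxylase gene, the cation channel gene Trpc1, Hps6 and the transcription factor subunit gene Gtf2e2 (r of 0.993 to 0.997). Their fold changes were far smaller than that of Gipr, the largest being 0.97 ± 0.16 for P4ha1. The 5 most like Ednrb were Il12a, which encodes an interleukin subunit, the vesicle traffic gene Rab12, the death-associated kinase gene Dapk1, Zmynd15 and the homeobox gene Meox1 (r of 0.994 to 0.998). Il12a had 7.52, 6.74 and 3.05 CPM in stretched 1 to 3, against 1.55, 1.53 and 1.33 CPM in static 1 to 3. Of the other 12891 tested genes, 1089 correlated above 0.9 with Wnk2, 636 with Gipr and 669 with Ednrb, so such likeness was common, and it rests on 6 libraries with a shared group difference.

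Markers of tissues in which these genes are best known ranged from undetected to well detected. The islet marker measured, Slc2a2, had 0 CPM in all stretched libraries and 0 to 0.106 CPM in static libraries, and the other 4 of that list were not analysed here. Of the adipocyte markers, Adipoq and Plin1 stayed at or below 0.479 CPM, whereas Fabp4, which macrophages also make, was called higher and carried nearly all of the list's 106 to 132 CPM in stretched and 16.6 to 27.6 CPM in static libraries (3 of 5 measured). For melanocytes and glia, 6 of 7 markers summed to 72.6 to 105 CPM in stretched and 58.8 to 66.2 CPM in static libraries, nearly all from Mitf, which macrophages also make, and Sox10 was at or below 0.272 CPM. Of the endothelial markers 7 of 7 were measured and 0 were called by edgeR. Kdr averaged 39.1 ± 12.2 CPM in stretched and 19 ± 4.92 CPM in static libraries (SD, n = 3 each), with no overlap (1.04 ± 0.29, adjusted p = 0.0582, and 0.0263 blocked by replicate number). Vwf was also above static in every stretched library (0.41 ± 0.15, adjusted p = 0.115). The sum of the 7 markers is given beside Edn1. Both Ednrb and these markers were lower in stretched 3 than in stretched 1 and 2, but static 3 was low for the markers and not for Ednrb. The part of endothelial cells in the Ednrb level was not tested.

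Of the epithelial markers 7 of 8 were measured, 2 were tested and 1, Epcam, was called higher. They summed to 38.8, 34 and 19.5 CPM in stretched 1 to 3, against 10.4, 14 and 13.8 CPM in static 1 to 3. Most of this was Epcam in stretched libraries, with 36.9, 31.2 and 13.4 CPM in stretched 1 to 3, against 8.54, 12 and 9.63 CPM in static 1 to 3 (1.43, adjusted p = 0.044, and 0.0605 blocked by replicate number), in the same order over the stretched libraries as Ednrb. Cdh1 had 1.14, 1.97 and 3.16 CPM in stretched 1 to 3, against 1.12, 1.8 and 2.77 CPM in static 1 to 3 (0.14, adjusted p = 0.866). The keratin genes Krt8, Krt18 and Krt19 stayed at or below 1.67 CPM, and Sftpb and Nkx2-1 at or below 0.23 CPM. The part of epithelial RNA in the levels of Wnk2, Gipr and Ednrb was not tested. Monocyte markers summed to 743 to 1166 CPM in stretched and 414 to 1807 CPM in static libraries, and neutrophil markers to 4094 to 7553 CPM in stretched and 3437 to 12944 CPM in static libraries, highest in static 3 for both. Static 3 was also the static library with the most Wnk2 and the least Gipr, the latter by 3 counts whose interval overlaps the others. The part of those cells was not tested. Mast cell and basophil markers summed to 26.2 to 42.7 CPM in stretched and 15.8 to 49.3 CPM in static libraries, and those of T, B and NK cells to 37.5 to 46.2 CPM in stretched and 34 to 49.6 CPM in static libraries. Among the lymphocyte genes Ms4a1 was called lower in stretched libraries. Stromal markers summed to 4740 to 6780 CPM in stretched and 3608 to 4920 CPM in static libraries, with 0 of 7 called by edgeR. Blocked by replicate number, Col3a1, Dcn and Lum were called higher (adjusted p = 0.0328, 0.0384 and 0.0252).

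**Figure D5:**
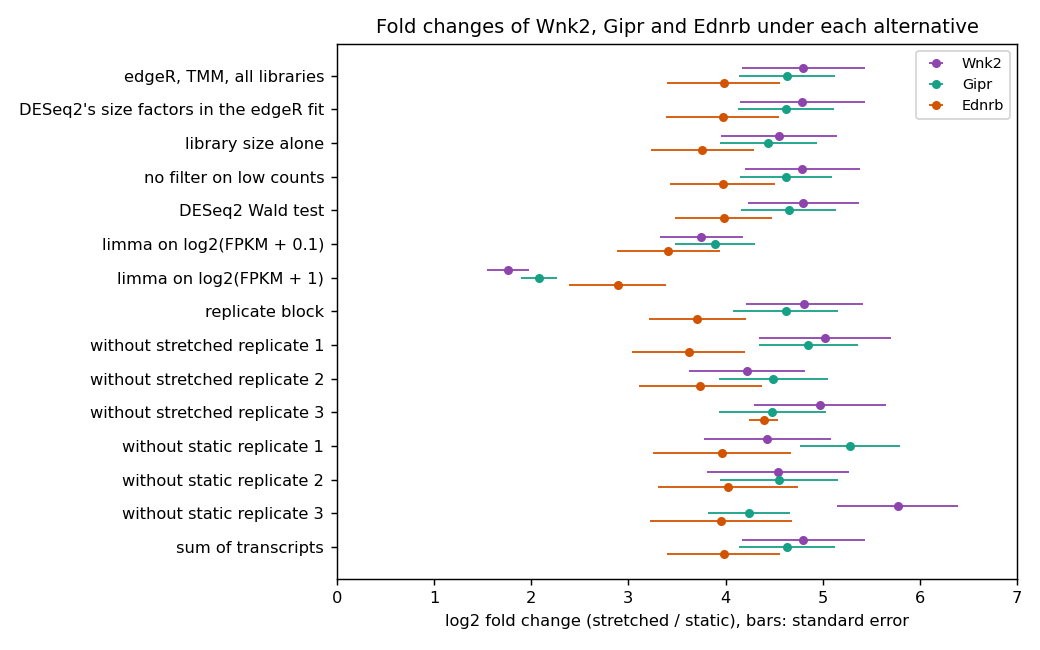
Log2 fold change (stretched over static) with SE of Wnk2, Gipr and Ednrb under the fit reported here and each alternative. All values are above 0, which the choice of these genes for their rise all but fixed. The lowest come from log2(FPKM + 1), at 1.76 for Wnk2, 2.08 for Gipr and 2.89 for Ednrb.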

How the data were processed

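The authors deposited estimated counts per gene and per transcript, not all whole, per the file headers, and a second value per feature without a named unit. That value equals the count divided by a length and the library total, and a gene's value is the sum over its transcripts within 0.1 for 16906 of 16906 genes, and it is treated here as FPKM computed by the authors. Per the labels' protocols, the input was total RNA and the kit an mRNA kit of the SMARTER line. GRCm38 and mm10 are named in the submitters' processing notes, whereas the sources used here name no aligner or counter. A deposited table that only pairs identifiers was not used here.

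Counts were rounded, filtered with filterByExpr (minimum count 10), which left 4014 genes untested, and tested with edgeR 4.0.16 (R 4.3.3, quasi-likelihood, TMM, Benjamini-Hochberg over 12892 genes). SEs come from the F statistic. Log2 CPM used a prior count of 2. Alternatives used DESeq2 1.42.0 and limma 3.58.1 on log2(FPKM + 0.1) and log2(FPKM + 1). Of 16906 identifiers 16802 matched RefSeq. Deviations from the group mean correlated at 0.286, 0.183 and 0.182 between same-numbered stretched and static libraries. Between unlike numbers the correlations ran from -0.24 to 0.109. Deviations from a mean of 3 libraries constrain each other, so these values do not settle whether same-numbered libraries were paired. The fit reported here took the libraries as unpaired, so its p-values and SEs do not use such a pairing. The numbers in the titles entered as a block only in an alternative, which changed some calls, as given beside the results. Whether replicates are separate animals or cultures is not stated, and p-values then describe only the spread between these libraries, which may be technical. All replicate pairs differed by more than sampling noise.

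The genes, the lists and the markers were chosen with earlier results of these data known. Partners were named where past the threshold (up to 6 per list), together with ligands, sister kinases and receptors, and 5 genes by correlation with each of Wnk2, Gipr and Ednrb. Precision is set by counts, and Poisson and binomial intervals cover counting error only.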

Additional observations from a re-analysis of the deposited data

How the results depend on the processing

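The log2 fold changes of Wnk2, Gipr and Ednrb kept their sign under all 14 alternatives each. That was all but fixed, as the genes were chosen for their rise and their groups did not overlap. The alternative from summed transcripts gave the same values as the gene counts (4.80, 4.63 and 3.98). With 1 library left out the log2 fold changes ran from 4.22 to 5.77, 4.24 to 5.28 and 3.62 to 4.39. On log2(FPKM + 1) they were 1.76, 2.08 and 2.89, and on log2(FPKM + 0.1) they were 3.75 for Wnk2 and 3.89 for Gipr. The log2 fold change ranks over all tested genes ran from 3 to 71 for Wnk2, 4 to 42 for Gipr and 11 to 48 for Ednrb. The counts of all genes called were 844 higher and 694 lower. They were 1398 and 1275 with DESeq2, 556 and 1297 with library size alone, 529 and 1203 on log2(FPKM + 0.1), 523 and 1197 on log2(FPKM + 1), and 408 lower with the replicate block. With 1 library left out they ran from 0 to 2095 higher and 0 to 2011 lower, where the 0, without static 2, compares with 1534 and 1321 when p is not adjusted (edgeR, 0.05 level).

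Of WNK pathway genes, 2 were higher with library size alone, without a filter and with the replicate block, and DESeq2 called 4 higher and 1 lower. With 1 library left out 0 to 3 were higher and 0 to 1 lower. Of GIP receptor pathway genes, 1 was higher on both FPKM scales, 4 were lower on both FPKM scales, with library size alone and with DESeq2, and 1 was lower with the replicate block. With 1 library left out 0 to 5 were higher and 0 to 4 lower. Of endothelin pathway genes, 0 were higher with library size alone, without a filter and on both FPKM scales, 3 with DESeq2, and 1 was lower with the replicate block. With 1 library left out 0 to 3 were higher and 0 to 4 lower. Of the class B receptor and accessory genes 0 to 1 was higher with 1 library left out. A pseudocount added to both groups by its construction shrinks folds, most for low values, and other causes were not tested. Beyond the values named beside the results, the replicate block changed no other call of a partner, marker or neighbour gene named here. The small static counts of Wnk2 and Gipr limit the precision of their folds.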
